A study of Mus musculus with 6 samples.

Results

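Macrophages grown on a zinc alloy with manganese, CaP Zn0.8Mn, were compared with macrophages grown on plain zinc, CaP Zn, across all genes. The comparison holds 4 of the 6 libraries of the series, 2 on each alloy, chosen by their treatment label. All cells were RAW 264.7, a mouse macrophage-like line made with Abelson leukemia virus, kept for 3 days on metal coated with calcium phosphate (CaP), so the coating was common to all groups. The remaining 2 libraries came from CaP Zn0.8Mn0.1Li, which adds lithium as well. Polyadenylated RNA was sequenced, and no bare-metal, uncoated or plastic control was analysed here. Nothing states that the 2 libraries of an alloy came from separate cultures, so p-values measure only the spread between libraries, which may be technical. The labelled cell type was borne out by its markers: 10 of 10 macrophage markers had counts in every library, while 7 of 7 epithelial markers stood at 0 in all 6. No other marker set was wholly at 0, and some osteoclast, osteoblast and B cell markers had counts in every library.

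Macrophages are among the early cells at an implant, and their cytokines, matrix proteases and growth factors shape how bone forms around it. Manganese is taken up by the transporters Slc39a8, Slc39a14 and Slc11a2 and exported by Slc30a10, and it is the cofactor of mitochondrial superoxide dismutase, Sod2. Zinc is buffered by the metallothioneins Mt1 and Mt2. Messenger RNAs of macrophages fall into classes that differ in length and lifetime: cytokine and immediate early messages are short-lived, ribosomal protein and respiratory chain messages are short and abundant, and scaffold proteins have some of the longest messages in the cell.

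The 2 CaP Zn0.8Mn libraries did not resemble each other. Replicate 2 correlated with both CaP Zn libraries at Pearson's r of 0.989 and 0.990 over log2 CPM (read counts scaled to a common library size), as the CaP Zn libraries did with each other at 0.989, whereas replicate 1 correlated with the other 5 libraries at 0.901 to 0.920. Genes of the mitochondrial genome took 7.88% of the counts of replicate 1 and 1.82% to 2.15% of the others. Totals ran from 14944070 counts in replicate 1 to 17709290, so replicate 1 was the shallowest library but close to the others in depth. Values are therefore given for each CaP Zn0.8Mn library on its own, beside the fits that use both.

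With both CaP Zn0.8Mn libraries, edgeR called no gene and DESeq2 called Gapdh. edgeR's quasi-likelihood test over all 6 libraries called 0 of 13156 genes (0%) at a Benjamini-Hochberg adjusted p under 0.05, and 207 genes (1.57%) had an unadjusted p under 0.05. DESeq2's 1 call, Gapdh, stood beside 467 genes (3.55%) at an unadjusted p under 0.05, and limma-voom called 0, with 152 (1.16%). Without a filter on low counts edgeR also called 1 gene, Gapdh. The result turned on which library stood for the alloy. Without replicate 1, edgeR called 2 genes (0.0152%), both lower, the pseudogenes Gm10123 and Rpl7a-ps5, with 569 genes (4.33%) at an unadjusted p under 0.05. Without replicate 2, it called 7808 genes (59.3%), 3802 higher (28.9%) and 4006 lower (30.4%), with 8369 (63.6%) at an unadjusted p under 0.05. Each of these fits keeps 1 library for the alloy and assumes that it varies like the libraries of the other groups, so they compare a library, not a condition, with CaP Zn. In bulk RNA, fewer cells of a kind and less RNA per cell cannot be told apart.

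**Figure D1:**
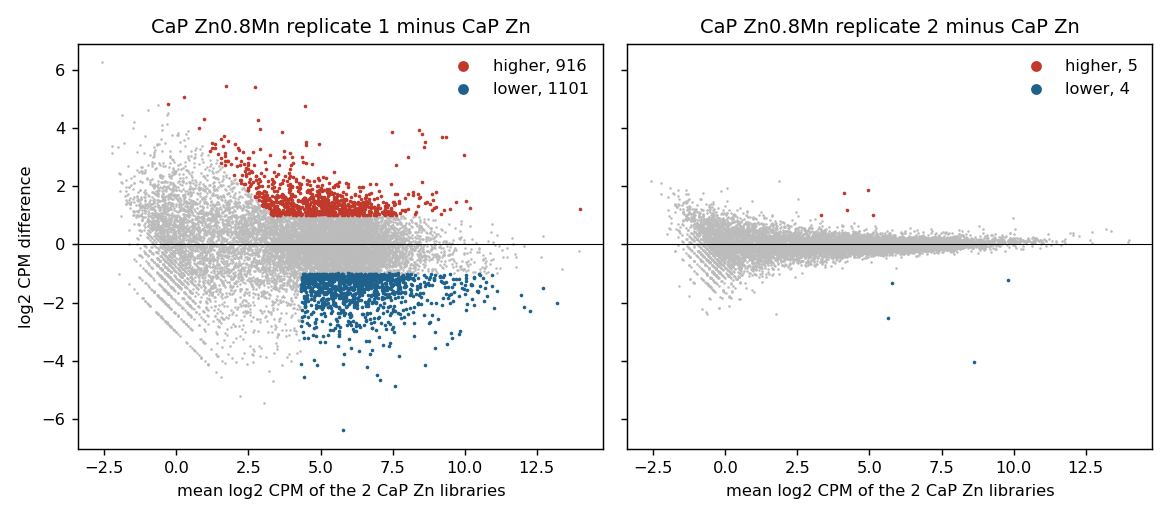
Log2 CPM difference of each CaP Zn0.8Mn library from the CaP Zn mean (vertical axis) against the mean log2 CPM of the 2 CaP Zn libraries (horizontal axis), 1 point per tested gene. Coloured points were past 2-fold, outside both CaP Zn libraries and at 20 CPM or more on CaP Zn or in that library. They numbered 916 higher and 1101 lower in replicate 1, 5 higher and 4 lower in replicate 2.

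Both CaP Zn0.8Mn libraries lay on the same side of both CaP Zn libraries for a small set of genes. A gene was counted when each CaP Zn0.8Mn library was at least 1.5-fold from the CaP Zn mean and the 4 libraries averaged at least 5 CPM. Of 9802 genes at that level, 13 were higher (0.133%) and 13 lower (0.133%). Scaling by library totals alone gave 8 higher and 17 lower, and leaving out CaP Zn replicate 1 or 2 gave 65 or 43 genes in all. Without the fold requirement 2265 genes (23.1%) lay outside CaP Zn on 1 side, and at 2-fold only 3 did (0.0306%), all lower: Gapdh, Gm10241 and Gm10123. None of the 26 passed edgeR over all 6 libraries, where the adjusted p of each was 0.773. In the group with lithium added, both libraries lay on the same side as CaP Zn0.8Mn for 5 of the 13 higher genes and 3 of the 13 lower genes.

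**Figure D2:**
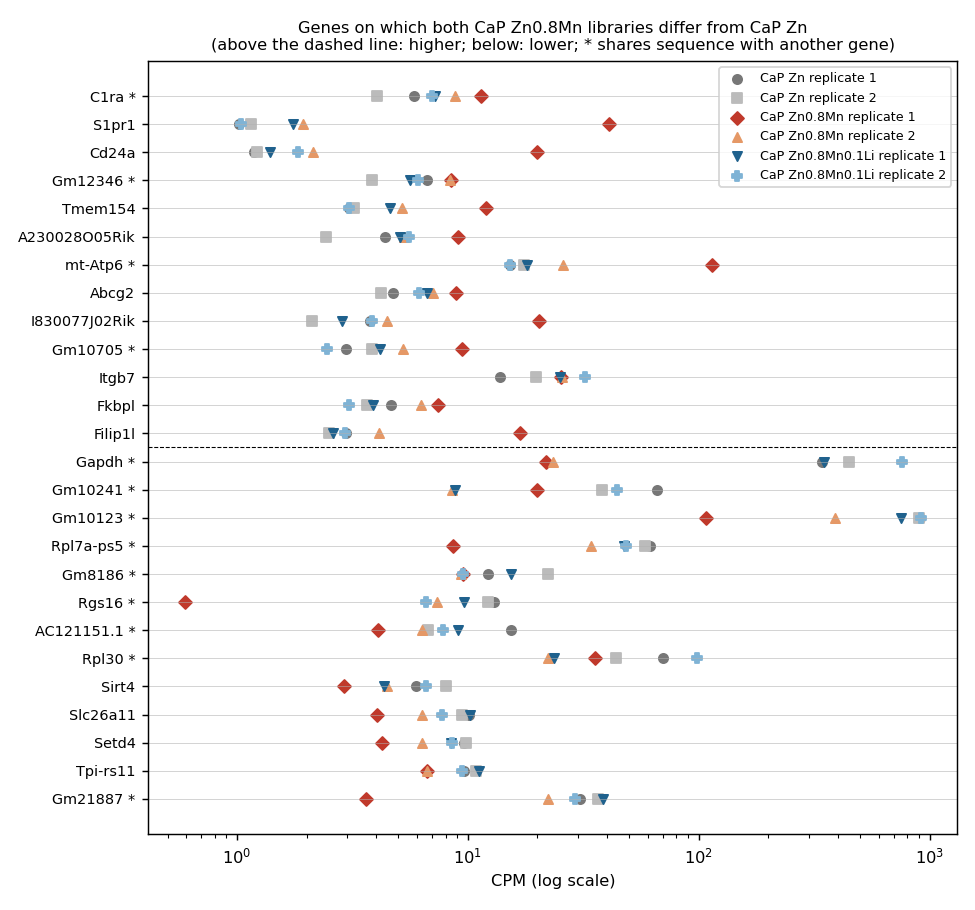
CPM (log axis) of the 26 genes on which both CaP Zn0.8Mn libraries lay at least 1.5-fold from CaP Zn on the same side, in each of the 6 libraries. Higher genes sit above the dashed line and lower genes below it; Gapdh stands at 21.7 and 23.3 CPM on CaP Zn0.8Mn against 340.5 and 448 CPM on CaP Zn.

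Of the 13 lower genes 9 (69.2%) shared at least 100 distinct 50-base windows with another annotated gene, as did 4 of the 13 higher genes (30.8%) and 3516 of all 9802 genes at that level (35.9%). A read from a shared stretch can be assigned to the gene or to its copy. The copies counted include genes that overlap on either strand, and the difference between these shares was not tested. Gapdh, the glycolytic enzyme glyceraldehyde-3-phosphate dehydrogenase (chr6:125161715-125166467, minus strand), had the lowest values relative to CaP Zn. Its level was 340.5 and 448 CPM on CaP Zn, 21.7 CPM in CaP Zn0.8Mn replicate 1, 23.3 CPM in replicate 2, and 347 and 761 CPM with lithium. Both CaP Zn0.8Mn libraries lay far below the other 4, with differences from CaP Zn of -4.16 and -4.06 on the log2 scale. The edgeR difference was -4.13 ± 0.45 (log2, SE; adjusted p = 0.773), and that of DESeq2 -4.13 ± 0.44 (adjusted p = 8.06e-17). Its processed pseudogene Gm13394 differs from it at 1 of 999 coding bases. Both are shown around that base, which is in capitals, because reads of the pair differ there and nowhere else in the coding sequence (both on the minus strand, GRCm38).
Gapdh: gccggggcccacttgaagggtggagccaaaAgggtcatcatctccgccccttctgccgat
Gm13394: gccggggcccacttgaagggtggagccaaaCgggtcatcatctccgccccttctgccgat
Gm13394 (chr2:28933610-28934609) stood at 1436 and 1845 CPM on CaP Zn, 865 CPM in replicate 1 and 1760.4 CPM in replicate 2, so the pseudogene held most of the counts of the pair everywhere. The sum of the pair was 1777 and 2293 CPM on CaP Zn, 886 CPM in replicate 1 and 1784 CPM in replicate 2. In replicate 2 the sum thus lay within the CaP Zn range, while the share assigned to Gapdh was 1.31% there, 2.45% in replicate 1, 19.2% and 19.5% on CaP Zn, and 16.8% and 30.6% with lithium.

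Sumo2, which encodes a small ubiquitin-like modifier, and its pseudogene Gm10241 (chr16:20176727-20177012) are identical over all 285 coding bases compared. Their first 60 coding bases are printed because no base in them can assign a read, hence no capitals.
Sumo2: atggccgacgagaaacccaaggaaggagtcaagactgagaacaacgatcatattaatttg
Gm10241: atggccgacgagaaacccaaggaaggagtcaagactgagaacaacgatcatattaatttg
Gm10241 had 65.8 and 38.1 CPM on CaP Zn, 19.9 CPM in replicate 1 and 8.53 CPM in replicate 2. Sumo2 had 17.3 and 55.8 CPM on CaP Zn, 7.07 CPM in replicate 1 and 114 CPM in replicate 2. The pair summed to 83.1 and 93.9 CPM on CaP Zn, 26.96 CPM in replicate 1 and 123 CPM in replicate 2. Sumo2 held 93.0% of the pair in replicate 2, as in the first library with lithium at 93.1%, against 20.8% and 59.4% on CaP Zn, 26.2% in replicate 1 and 54.2% in the second library with lithium.

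Rpl30, a protein of the large ribosomal subunit, differs from the pseudogene Gm12191 at 1 of 345 coding bases, in capitals below for the same reason.
Rpl30: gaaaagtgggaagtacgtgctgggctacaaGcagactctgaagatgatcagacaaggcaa
Gm12191: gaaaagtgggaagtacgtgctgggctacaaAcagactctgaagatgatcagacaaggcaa
Rpl30 had 70.2 and 43.9 CPM on CaP Zn, 35.4 CPM in replicate 1 and 22.2 CPM in replicate 2. With its pseudogene it summed to 637 and 699 CPM on CaP Zn, 206 CPM in replicate 1 and 704 CPM in replicate 2. The pair was thus lower in replicate 1 only.

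The pseudogene Gm10123 (chr9:96895658-96896147) shares 441 windows with Ppia, the gene of the prolyl isomerase cyclophilin A. Gm10123 had 905 and 902 CPM on CaP Zn, 108 CPM in replicate 1, 387 CPM in replicate 2, and 748 and 913 CPM with lithium. Without replicate 1 the edgeR difference was -1.22 ± 0.15 (log2, SE; adjusted p = 0.00907), so it fell in replicate 2 on its own. Ppia stood at 963 and 1048 CPM on CaP Zn, 1103 CPM in replicate 1 and 1865 CPM in replicate 2, and the sum of both was 1868, 1950, 1210 and 2253 CPM in that order. Ppia held 51.6% and 53.7% of the pair on CaP Zn and 91.1% and 82.8% in the CaP Zn0.8Mn libraries. Rpl7a-ps5, a pseudogene of a large-subunit ribosomal protein, had 61.6 and 58.5 CPM on CaP Zn, 8.66 CPM in replicate 1 and 34.2 CPM in replicate 2. It also fell in replicate 2 on its own, with a difference of -0.81 ± 0.12 (log2, SE; edgeR, adjusted p = 0.0388). Its family of near-identical genes summed to 494 and 723 CPM on CaP Zn, 110.0 CPM in replicate 1 and 795 CPM in replicate 2. The family sum was above both CaP Zn libraries in replicate 2, opposite to the pseudogene.

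**Figure D3:**
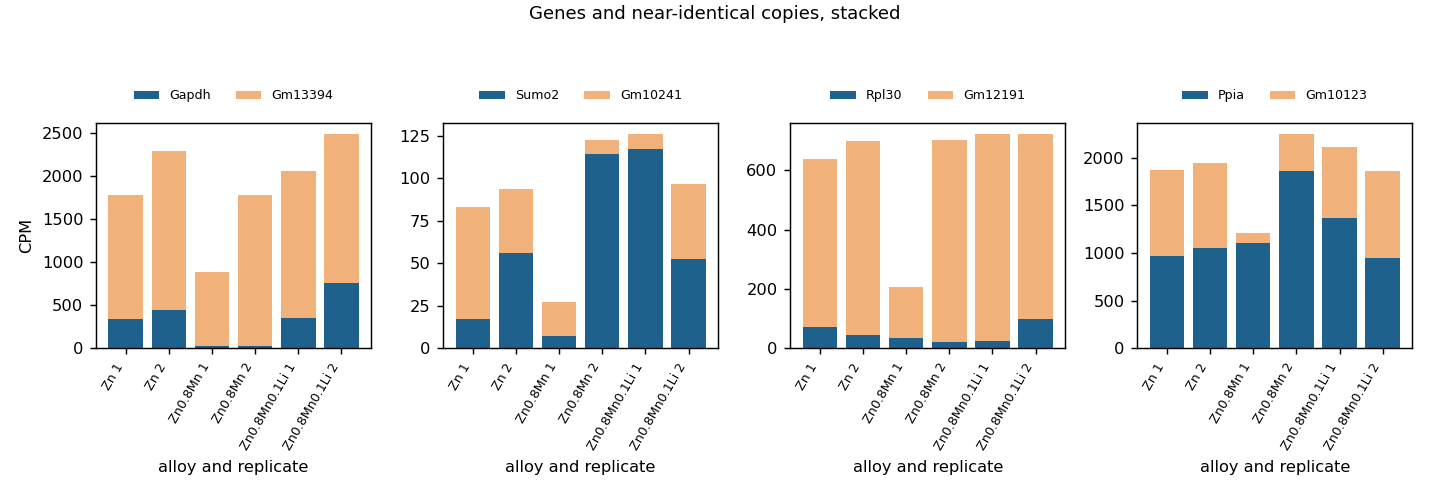
CPM of 4 genes (dark) stacked on a near-identical pseudogene (light) in each library, on linear axes from 0. In CaP Zn0.8Mn replicate 2 the pair sums stand at 1784, 123, 704 and 2253 CPM while the split within each pair differs from CaP Zn.

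The other lower genes with shared sequence were AC121151.1, of the same family as Rpl7a-ps5, and Gm8186, Rgs16 and Gm21887. Gm8186 shares its sequence with the spliceosomal protein gene Snrpg, and the pair summed to 145 and 151 CPM on CaP Zn, 32.4 CPM in replicate 1 and 149.9 CPM in replicate 2. Gm21887 (chrX:170009659-170019281) shares sequence with Gm47283 on chromosome Y. That pair stood at 58.2 and 67.4 CPM on CaP Zn, 5.15 CPM in replicate 1 and 44.0 CPM in replicate 2, below CaP Zn in both. Rgs16 (chr1:153740349-153745468), a regulator that switches off G protein signalling, shares 191 windows with the antisense gene Gm28513, which had at most 0.108 CPM in any library. It had 12.96 and 12.2 CPM on CaP Zn, 0.595 CPM in replicate 1, 7.37 CPM in replicate 2, and 9.66 and 6.60 CPM with lithium. All 4 libraries from manganese-containing alloys thus lay below both CaP Zn libraries for Rgs16, but the difference without replicate 1 was -0.77 ± 0.25 (edgeR, log2, SE; adjusted p = 0.967).

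The 4 lower genes without a copy were weakly expressed. Sirt4, a mitochondrial sirtuin, stood at 5.97 and 7.996 CPM on CaP Zn, 2.91 CPM in replicate 1 and 4.46 CPM in replicate 2. Slc26a11, an anion transporter, stood at 10.1 and 9.47 CPM on CaP Zn, 4.03 CPM in replicate 1 and 6.33 CPM in replicate 2. For Setd4, a SET-domain protein, the values were 9.57 and 9.79 CPM on CaP Zn, 4.23 CPM in replicate 1 and 6.33 CPM in replicate 2. Tpi-rs11, a processed pseudogene, had 9.57 and 10.8 CPM on CaP Zn, 6.67 CPM in replicate 1 and 6.66 CPM in replicate 2. The replicate 2 differences were -0.62, -0.62, -0.60 and -0.60 (log2), each with an adjusted p of 0.967 in edgeR without replicate 1.

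Among the 13 higher genes, levels on CaP Zn were low, with means of 1.09 to 16.8 CPM. Of the 13, 8 reached the minimum mean of 5 CPM only through replicate 1, so that library had to stand high in them: S1pr1, Cd24a, Filip1l, Tmem154, I830077J02Rik, A230028O05Rik, Fkbpl and Gm10705. The other 5, Itgb7, C1ra, Abcg2, mt-Atp6 and Gm12346, and all 13 lower genes reached it without that library. Itgb7, the integrin beta subunit that pairs with alpha 4 and alpha E, was the most abundant on CaP Zn and nearly equal in the 2 CaP Zn0.8Mn libraries. It stood at 13.8 and 19.8 CPM on CaP Zn, 25.4 CPM in replicate 1, 25.6 CPM in replicate 2 and 24.99 and 32.04 CPM with lithium, so all 4 libraries from manganese-containing alloys lay above CaP Zn. C1ra (chr6:124512405-124523443), a serine protease of the complement C1 complex that shares sequence with C1rb, had 5.86 and 4.03 CPM on CaP Zn, 11.4 CPM in replicate 1 and 8.79 CPM in replicate 2. Abcg2, a drug and urate efflux pump, had 4.73 and 4.22 CPM on CaP Zn, 8.85 CPM in replicate 1 and 7.05 CPM in replicate 2, with 6.64 and 6.11 CPM on the lithium alloy. C1ra, Abcg2 and Itgb7 were thus above CaP Zn in all 4 libraries, with an adjusted p of 0.773 for each in edgeR over all 6.

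For other genes the 2 CaP Zn0.8Mn libraries agreed in direction but not in size, among them 4 that passed the level only through replicate 1. S1pr1, a receptor for sphingosine-1-phosphate, had 1.02 and 1.15 CPM on CaP Zn, 40.6 CPM in replicate 1 and 1.94 CPM in replicate 2. Cd24a, a glycosylated surface protein, had 1.18 and 1.22 CPM on CaP Zn, 19.8 CPM in replicate 1 and 2.13 CPM in replicate 2. Filip1l, a filamin-interacting protein, had 2.96 and 2.49 CPM on CaP Zn, 16.9 CPM in replicate 1 and 4.14 CPM in replicate 2, and the transmembrane gene Tmem154 had 3.06 and 3.20 CPM on CaP Zn, 11.96 CPM in replicate 1 and 5.17 CPM in replicate 2. In these genes replicate 1 lay 1.89 to 5.08 above CaP Zn on the log2 scale and replicate 2 only 0.59 to 0.77. The mitochondrial gene mt-Atp6, a proton channel subunit of ATP synthase, had 15.3 and 17.5 CPM on CaP Zn, 114 CPM in replicate 1 and 25.9 CPM in replicate 2, and shares 629 windows with the nuclear pseudogene Gm10925. Gm12346, Gm10705, the lincRNA A230028O05Rik, I830077J02Rik and Fkbpl completed the set, at 2.11 to 6.67 CPM on CaP Zn.

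CaP Zn0.8Mn replicate 2 alone held 9 genes past 2-fold among 7352 genes at 20 CPM or more, 5 higher (0.068%) and 4 lower (0.0544%). That level was met on CaP Zn or in replicate 2. Scaling by library totals gave 3 higher and 4 lower. The lower genes were Gapdh, Gm10241, Rpl30 and Gm10123, and with Sumo2 they make the 5 of 9 that share windows with another gene, against 2570 of all 7352 (35%). The other 4 higher genes were Lcn2, Mmp9, Wfdc17 and Qpct. Lcn2, Wfdc17 and Qpct averaged under 20 CPM on CaP Zn and reached the level only through replicate 2, so that library had to stand high in them. Lcn2, the siderophore-binding lipocalin 2, had 14.8 and 20.2 CPM on CaP Zn, 59.8 CPM in replicate 2, 5.62 CPM in replicate 1 and 41.1 and 72.7 CPM with lithium. Mmp9, a gelatinase that cuts matrix, had 26.6 and 45.9 CPM on CaP Zn, 70.5 CPM in replicate 2, 6.67 CPM in replicate 1 and 73.6 and 82.7 CPM with lithium. Wfdc17, a small secreted protein with a WAP domain, had 13.2 and 25.7 CPM on CaP Zn, 6.01 CPM in replicate 1, 41.9 CPM in replicate 2 and 43.5 and 45.9 CPM with lithium. Qpct, a glutaminyl cyclase, had 8.01 and 12.03 CPM on CaP Zn, 4.96 CPM in replicate 1, 20.04 CPM in replicate 2 and 17.99 and 18.7 CPM with lithium.

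In all 5 higher genes the 2 CaP Zn0.8Mn libraries lay on opposite sides of CaP Zn, replicate 2 above and replicate 1 below. In Lcn2, Mmp9, Wfdc17 and Qpct, both lithium libraries also lay above CaP Zn, that is, with replicate 2. None of them passed edgeR without replicate 1, where the differences were 1.78 ± 0.45, 0.97 ± 0.34, 1.12 ± 0.37 and 1.01 ± 0.21 (log2, SE) with adjusted p of 0.967, 0.967, 0.967 and 0.45. DESeq2 without replicate 1 called 5 genes, among them Spp1, which encodes osteopontin, and Cfp, which encodes the complement factor properdin. Spp1 stood at 9148 and 9749 CPM on CaP Zn, 13774 CPM in replicate 2, 2345 CPM in replicate 1 and 12651 and 14905 CPM with lithium, a difference of 0.55 ± 0.13 (log2, SE; DESeq2 adjusted p = 0.0461) that had an adjusted p of 0.967 in edgeR. Cfp stood at 267 and 279 CPM on CaP Zn, 59.5 CPM in replicate 1, 387 CPM in replicate 2 and 341 and 340.3 CPM with lithium, with a difference of 0.50 ± 0.12 (DESeq2 adjusted p = 0.0461; edgeR 0.45). Both genes were above CaP Zn in replicate 2 and below it in replicate 1.

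CaP Zn0.8Mn replicate 1 alone held 2017 genes past 2-fold among 7852, 916 higher (11.7%) and 1101 lower (14%). Among genes at 20 CPM or more in replicate 1 or on CaP Zn, those farthest above CaP Zn began with Tlr13 and Tlr7. Tlr13, an endosomal sensor of bacterial ribosomal RNA, had 3.60 and 2.75 CPM on CaP Zn, 141 CPM in replicate 1, 2.71 CPM in replicate 2 and 2.23 and 2.08 CPM with lithium. Tlr7, a sensor of single-stranded RNA, had 8.33 and 4.99 CPM on CaP Zn, 279 CPM in replicate 1, 9.63 CPM in replicate 2 and 3.26 and 4.16 CPM with lithium. Cx3cr1, the fractalkine receptor, had 24.7 and 19.2 CPM on CaP Zn, 592 CPM in replicate 1, 26.8 CPM in replicate 2 and 13.2 and 14.7 CPM with lithium. In all 3 replicate 1 stood far above the other 5 libraries.

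The rest of the 10 genes farthest above CaP Zn at that level were S1pr1, the lysophosphatidic acid receptor gene Lpar5, Gm28439, the dehydrogenase gene Dhrs9, the zinc finger gene Zfp738, the beta-glucan receptor gene Clec7a and mt-Nd2. Lpar5 had 0.538 and 0.896 CPM on CaP Zn against 22.996 CPM in replicate 1, Dhrs9 10.1 and 4.93 against 137 CPM, and Clec7a 6.83 and 7.80 against 117 CPM. Gm28439, an unprocessed pseudogene, had 2.63 and 1.28 against 38.8 CPM, and Zfp738 2.26 and 1.15 against 27.5 CPM. The differences of the 10 genes were 3.92 to 5.43 in replicate 1 and -0.47 to 0.77 in replicate 2 (log2). All except Cx3cr1 and mt-Nd2 averaged under 20 CPM on CaP Zn and reached the level only through replicate 1. That library thus had to stand high in them.

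The genes farthest below CaP Zn in replicate 1, again among those at 20 CPM or more, included very short messages and inducible genes. Atp5k (chr5:108433244-108434448), subunit e of mitochondrial ATP synthase, had 52.3 and 57.4 CPM on CaP Zn, 0.529 CPM in replicate 1 and 46.3 CPM in replicate 2. Tmsb10 (chr6:72957347-72958748), a thymosin that binds actin monomers, had 163 and 221 CPM on CaP Zn, 6.41 CPM in replicate 1 and 233 CPM in replicate 2. Their whole coding sequences, of 216 and 135 bases, are shown because replicate 1 was lowest among genes of short coding length. The start and stop codons are in capitals.
Tmsb10: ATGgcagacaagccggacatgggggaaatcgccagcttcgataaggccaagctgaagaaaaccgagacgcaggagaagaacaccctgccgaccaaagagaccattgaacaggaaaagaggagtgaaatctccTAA
Atp5k: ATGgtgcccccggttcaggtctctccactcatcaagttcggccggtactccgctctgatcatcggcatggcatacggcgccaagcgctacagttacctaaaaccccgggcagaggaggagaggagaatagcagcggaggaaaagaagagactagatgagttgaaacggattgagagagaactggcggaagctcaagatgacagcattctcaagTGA
Cxcl2, a neutrophil-attracting chemokine, had 127 and 140.0 CPM on CaP Zn, 5.15 CPM in replicate 1 and 156 CPM in replicate 2. Lsm5, a protein that binds spliceosomal RNA, had 23.1 and 19.8 CPM on CaP Zn, 0.793 CPM in replicate 1 and 22.7 CPM in replicate 2, and the stress-induced chromatin protein gene Nupr1 had 98.3 and 97.04 CPM on CaP Zn, 5.15 CPM in replicate 1 and 92.4 CPM in replicate 2. With Gapdh, Gm47283, 2410006H16Rik, 1500011K16Rik and 1810032O08Rik these made the 10 farthest below at that level, at -6.40 to -4.10 in replicate 1 (log2). Apart from Gapdh, replicate 2 lay within -0.41 to 0.30 of CaP Zn in these genes.

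Near-complete presence or absence was rare. In replicate 1, 3 genes with at most 3 counts in each CaP Zn library reached 5 CPM: Adgre5, an adhesion receptor also known as CD97, at 12.8 CPM, the costimulatory receptor gene Cd28 at 10.8 CPM, and Gm44321 at 5.02 CPM. Adgre5 was also above CaP Zn in replicate 2, at 0.646 CPM, but on few counts: 10 there against 2 and 0 on CaP Zn. In the other direction, the granulocyte colony-stimulating factor gene Csf3 had 5.32 and 5.44 CPM on CaP Zn and 0.198 CPM in replicate 1, and the small GTPase gene Rab15 9.62 and 6.78 CPM against 0.0661 CPM. Csf3 stood at 11.8 CPM in replicate 2 and 11.5 and 15.5 CPM with lithium. Replicate 2 and both lithium libraries had 0 such genes in either direction.

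The differences of replicate 1 went with transcript length. Protein-coding genes were put into 6 bins of equal size by the length of their longest coding transcript. The median log2 difference of replicate 1 from CaP Zn was -0.78 in the shortest bin (to 1616 bases), then -0.28, -0.045, 0.15, 0.32 and 0.57 in the longest (5461 bases and over). Of the shortest genes 82.6% lay below the CaP Zn mean, against 20.995% of the longest. The shortest bin took 25.3% and 27.1% of counts on CaP Zn, 19.5% in replicate 1 and 28.0% in replicate 2, and the longest 14.85% and 13.97%, 22.5% and 13.2%. Replicate 2 ran the other way by a small amount, from 0.072 in the shortest bin to -0.080 in the longest. Across the 10970 protein-coding genes the Spearman correlation of the difference with length was 0.463 for replicate 1 and -0.263 for replicate 2, and 0.114 and -0.114 for the CaP Zn libraries, whose differences mirror each other by construction. The genes share the library and are not replicates.

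**Figure D4:**
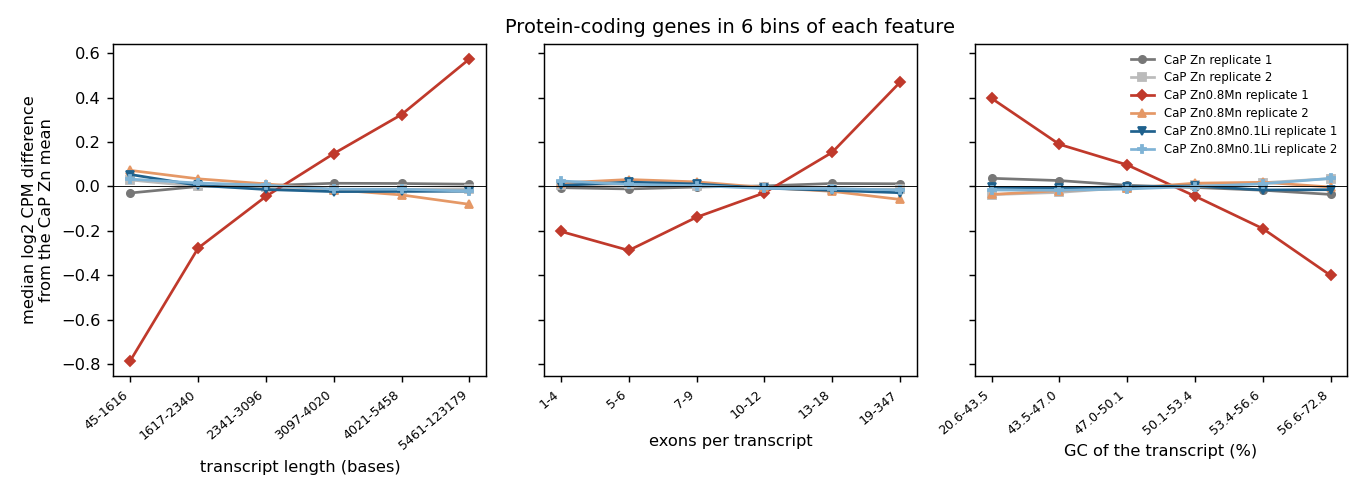
Median log2 CPM difference from the CaP Zn mean (vertical axis) of protein-coding genes in 6 bins of transcript length in bases, of exon number and of GC percent, 1 line per library. CaP Zn0.8Mn replicate 1 runs from -0.78 to 0.57 with length and from 0.40 to -0.40 with GC, while the other 5 lines stay within 0.1 of 0.

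Its differences also went with coding length, 3′ UTR length, exon number and GC content, features that go together. By coding length the medians of replicate 1 ran from -0.72 to 0.56, by 3′ UTR length from -0.41 to 0.36, and for genes of 19 or more exons the median was 0.47 against -0.20 for those of 4 or fewer. By GC content they ran from 0.40 in the AT-rich bin (to 43.5% GC) to -0.40 in the GC-rich bin (56.6% and over). Across genes the Spearman correlation with GC was -0.271 for replicate 1, and -0.208 and 0.208 for the CaP Zn libraries. A rank trend with GC was thus present between the CaP Zn libraries too. Its size was small, with GC bin medians of 0.037 to -0.036 in CaP Zn replicate 1. Each relation held at a fixed value of the other feature: among the shortest genes the median was -0.28 at low GC (137 genes) and -1.09 at high GC (440 genes), and among the longest 0.60 (488 genes) and 0.39 (140 genes). What the library's order by length, GC and mitochondrial counts arises from was not tested.

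Transcript classes of replicate 1 are described by the median log2 difference of their tested members, beside 0.004 over all 13156 genes, of which 14.5% lay over 2-fold higher and 16.3% over 2-fold lower. In replicate 2 the shares were 1.04% and 1.1%. The lists were drawn up with earlier results of these data known, so their counts are descriptions. Members that passed are those with an adjusted p under 0.05 in edgeR without replicate 2, against 28.9% higher and 30.4% lower over all genes. In replicate 2 no list described here had a median beyond 0.24 in size. Members counted as higher or lower are so relative to the CaP Zn mean. Values relative to length subtract from each gene the median of its length bin. A class at 20 CPM or more holds genes at that level on CaP Zn or in replicate 1. Genes could thus enter through replicate 1 itself.

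**Figure D5:**
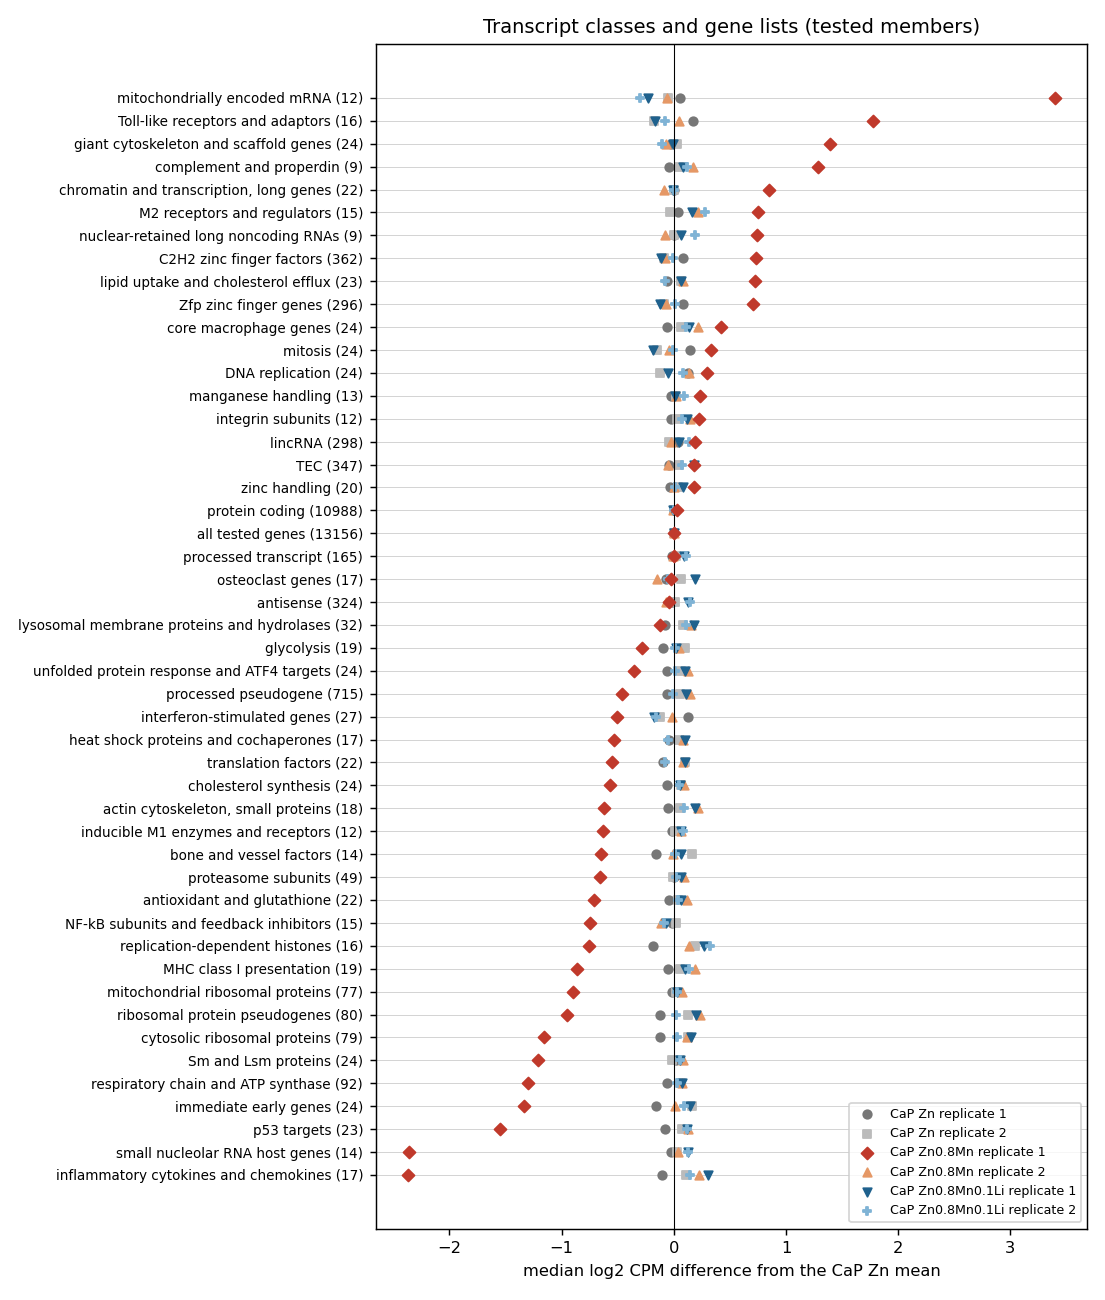
Median log2 CPM difference from the CaP Zn mean (horizontal axis) of the tested members of each class or list (number of members in brackets), 1 symbol per library. CaP Zn0.8Mn replicate 1 spans -2.37 for inflammatory cytokines to 3.40 for mitochondrially encoded mRNA, while most symbols of the other 5 libraries lie near 0.

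Mitochondrially encoded messages were the class that replicate 1 held most above CaP Zn. All 12 tested mRNAs of the mitochondrial genome were over 2-fold higher, with a median of 3.40 (log2), and 12 passed as higher. The cytochrome oxidase subunit gene mt-Co1, the most abundant, had 15394 and 17156 CPM on CaP Zn, 37767 CPM in replicate 1 and 18226 CPM in replicate 2. The complex I gene mt-Nd5 stood at 1043 and 956 CPM on CaP Zn and 8421 CPM in replicate 1, and mt-Nd1, of the same complex, at 772 and 548 CPM against 8462 CPM. Mitochondrial ribosomal RNA took 0.0543% and 0.0506% of counts on CaP Zn, 0.35% in replicate 1 and 0.0615% in replicate 2. Mitochondrial tRNA, itself very short, had a median of 2.41 over 9 genes, but its 3 most abundant members, mt-Tp, mt-Tc and mt-Tn, differed by 1.35, 0.99 and 0.11. Unprocessed pseudogenes with copies of mitochondrial sequence stood high with them, such as Gm10925 at 23.8 and 21.6 CPM on CaP Zn and 262 CPM in replicate 1.

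The nuclear genes of the same respiratory chain went the opposite way. Of 92 tested nuclear genes for the respiratory chain and ATP synthase, 90 were lower in replicate 1, with a median of -1.30, and 83 passed as lower and 0 as higher. They took 1.42% and 1.47% of counts on CaP Zn, 0.734% in replicate 1 and 1.46% in replicate 2. Within the class the size of the difference varied: Atp5b, the catalytic beta subunit, had 1819 and 1951 CPM on CaP Zn and 1182 CPM in replicate 1, Atp5a1 1048 and 1139 CPM against 890.1 CPM, and Cox4i1, a cytochrome oxidase subunit, 562 and 651 CPM against 276 CPM. Against protein-coding genes of the same length bin the class median was -0.64.

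Ribosomal protein messages were lower in replicate 1 as well. Of 79 cytosolic ribosomal protein genes 75 were lower, with a median of -1.15 (-0.52 relative to genes of the same length bin), and 65 passed as lower. They took 8.77% and 9.72% of counts on CaP Zn, 5.03% in replicate 1 and 9.59% in replicate 2. The 3 most abundant differed less: Rpsa had 3023 and 3521 CPM on CaP Zn and 3279 CPM in replicate 1, Rpl4 3180.2 and 3691 CPM against 2704 CPM, and Rps3 2210.3 and 2651 CPM against 1389 CPM. Mitochondrial ribosomal proteins had a median of -0.90, with 64 of 77 passing as lower, and proteasome subunits -0.66, with 38 of 49. The Sm and Lsm proteins that form the core of spliceosomal particles had -1.21, with 22 of 24 passing as lower. Snrpd2 among them stood at 172 and 204 CPM on CaP Zn and 23.3 CPM in replicate 1. Relative to length, the median was -0.43 for mitochondrial ribosomal proteins, -0.086 for proteasome subunits and -0.86 for Sm and Lsm proteins. Proteasome subunits thus stood near genes of similar length.

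Small nucleolar RNA host genes, whose spliced transcripts are short and decay quickly while their introns yield guide RNAs, were lower in 13 of 14 members, with a median of -2.36 and -1.93 relative to length. Snhg1 had 93.4 and 99.4 CPM on CaP Zn, 15.6 CPM in replicate 1 and 97.99 CPM in replicate 2. Zfas1 had 80.2 and 80.4 CPM on CaP Zn, 6.15 CPM in replicate 1 and 74.3 CPM in replicate 2, and Snhg17 50.3 and 60.4 CPM on CaP Zn, 26.9 CPM in replicate 1 and 53.6 CPM in replicate 2. In all 3 replicate 1 lay well below both CaP Zn libraries. Of the 14 members 12 passed as lower and 0 as higher.

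Lists of inducible genes had medians below CaP Zn in replicate 1. All 17 tested cytokine and chemokine genes lay below the CaP Zn mean, 11 of them over 2-fold, with a median of -2.37 (-1.58 relative to length). Ccl3 had 669 and 843 CPM on CaP Zn and 80.1 CPM in replicate 1, whereas Ccl9, another CC chemokine, was at 448 and 546 CPM against 469 CPM. Immediate early genes had a median of -1.33, with 16 of 24 passing as lower and 3 as higher. Junb, a subunit of the transcription factor AP-1, had 213 and 282 CPM on CaP Zn and 63.4 CPM in replicate 1, and Klf6 155 and 181 CPM against 168 CPM. Targets of p53 had a median of -1.55, with 19 of 23 passing as lower. The cell cycle inhibitor gene Cdkn1a stood at 657 and 777 CPM on CaP Zn and 176 CPM in replicate 1. Among the M1 enzymes Nos2, the inducible nitric oxide synthase, had 112 and 107 CPM on CaP Zn, 8.79 CPM in replicate 1 and 110.1 CPM in replicate 2. Its list had a median of -0.63, with 4 of 12 members passing as lower and 3 as higher, and a median of -1.31 among those at 20 CPM or more.

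Antigen presentation and stress proteins were lower to a smaller extent. MHC class I presentation genes had a median of -0.86 in replicate 1, with 16 of 19 passing as lower. B2m, the light chain of class I molecules, had 1322 and 1482 CPM on CaP Zn, 446 CPM in replicate 1 and 1536 CPM in replicate 2. Antioxidant genes had a median of -0.71, with the ferritin chains Fth1 at 5772 and 7763 CPM on CaP Zn and 2370.3 CPM in replicate 1 and Ftl1 at 3355 and 4596 CPM against 1184 CPM. The endoplasmic reticulum chaperone gene Hspa5 had 4248 and 5661 CPM on CaP Zn and 1001 CPM in replicate 1, in a list whose median was -0.35. Glycolysis had a median of -0.29, between -0.39 and -0.19 with either CaP Zn library left out, with Pkm, pyruvate kinase, at 6023 and 6911 CPM against 4821 CPM. Gapdh was the 1 member of 19 over 2-fold lower.

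Long messages were also higher in replicate 1. All 24 genes of giant cytoskeletal and scaffold proteins were higher, 20 of them over 2-fold, with a median of 1.39 (0.82 relative to their length bin). The longest bin begins at 5461 bases and their median length was 13469 bases, so the bin matches their length only in part. They took 0.559% and 0.538% of counts on CaP Zn, 1.79% in replicate 1 and 0.507% in replicate 2. Ahnak, a giant scaffold protein under the membrane, had 402 and 379 CPM on CaP Zn, 4514 CPM in replicate 1 and 394 CPM in replicate 2. Macf1, which links microtubules to actin, had 486 and 532 CPM on CaP Zn, 1763 CPM in replicate 1 and 453 CPM in replicate 2, and Tln1, the integrin-binding talin, 507 and 524 CPM on CaP Zn, 1263 CPM in replicate 1 and 511 CPM in replicate 2. Long chromatin genes had a median of 0.85, and 0.27 relative to their length bin. The same limit holds for them, as their median length was 9325.5 bases. The C2H2 zinc finger factors were shorter, with a median length of 3685.5 bases, and their median relative to length was 0.58. C2H2 zinc finger factors, 362 tested genes, had a median of 0.74, with 196 passing as higher and 40 as lower, and a median of 0.46 among those at 20 CPM or more.

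Receptors of the macrophage surface and endosome were among the higher genes of replicate 1. Toll-like receptors and their adaptors had a median of 1.77 in replicate 1, and 1.72 relative to length. Of 16 tested members 11 were over 2-fold higher, 12 passed as higher and 0 as lower. Tlr2, a receptor of bacterial lipoproteins, had 74.3 and 71.3 CPM on CaP Zn, 235 CPM in replicate 1 and 80.2 CPM in replicate 2. Cd14, the coreceptor for lipopolysaccharide, had 325 and 303 CPM on CaP Zn, 650.2 CPM in replicate 1 and 378 CPM in replicate 2, while Unc93b1, the chaperone of endosomal Toll-like receptors, had 320.1 and 333 CPM on CaP Zn, 317 CPM in replicate 1 and 328 CPM in replicate 2. The adaptor-side gene Unc93b1 thus stood close to its CaP Zn level in replicate 1, while Tlr2 and Cd14 did not. Core macrophage genes had a median of 0.42, with 12 of 24 passing as higher and 6 as lower. Cybb, the catalytic subunit of the phagocyte NADPH oxidase, had 696 and 751 CPM on CaP Zn and 1684 CPM in replicate 1, and Lyz2, lysozyme, 9182 and 12270.5 CPM against 5861 CPM. Lipid uptake and efflux genes had a median of 0.73, with Lpl, lipoprotein lipase, at 1008 and 1341 CPM against 2773 CPM and the endocytic receptor gene Lrp1 at 957 and 1147 CPM against 2916 CPM. Among integrins Itga4, the alpha 4 subunit, had 379 and 354 CPM on CaP Zn, 5118 CPM in replicate 1 and 316 CPM in replicate 2, in a list whose median was 0.23.

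Genes of bone and of resorption are of interest for an implant. In replicate 1, 6 bone and vessel factors were higher and 8 lower, and 8 osteoclast genes higher and 9 lower. In replicate 2 the numbers were 7 and 7, and 5 and 12, beside 6512 and 6644 over all genes. Spp1 of the first list differed by -2.01 in replicate 1 and 0.54 in replicate 2 (log2). Mmp9 of the second list differed by -2.37 and 1.01. Bone and vessel factors had a median of -0.65 in replicate 1 and -0.0069 in replicate 2, with 5 of 14 passing as higher and 7 as lower in replicate 1. With either CaP Zn library left out the replicate 1 median ran from -0.79 to -0.28. Tgfb1, transforming growth factor beta, had 182 and 221 CPM on CaP Zn, 142 CPM in replicate 1 and 235 CPM in replicate 2, and the semaphorin gene Sema4d had 111 and 135 CPM on CaP Zn, 127 CPM in replicate 1 and 117 CPM in replicate 2. Osteoclast genes had medians of -0.03 and -0.15, with 6 of 17 passing as higher and 7 as lower in replicate 1, where leaving out either CaP Zn library gave -0.37 to 0.13. Tcirg1, a proton pump subunit of the ruffled border, had 343 and 412 CPM on CaP Zn, 235 CPM in replicate 1 and 394 CPM in replicate 2. Complement genes had a median of 1.29 in replicate 1, with 6 of 9 passing as higher and 2 as lower. Itgam, the alpha M integrin that binds complement, had 97.1 and 104 CPM on CaP Zn, 64.96 CPM in replicate 1 and 139.7 CPM in replicate 2.

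The remaining lists are given by their replicate 1 medians and the members that passed. Relative to length, the median was 0.086 for translation factors, -0.012 for small actin cytoskeleton proteins and 0.032 for replication-dependent histones. These lists thus stood near genes of similar length. The medians that follow are not relative to length. M2 receptors and regulators had 0.75 with 8 of 15 higher and 1 lower, and among them the scavenger receptor gene Cd36 had 194 and 179.9 CPM on CaP Zn, 349 CPM in replicate 1 and 248 CPM in replicate 2. NF-kB subunits and inhibitors had -0.75 with 2 of 15 higher and 9 lower, with the inhibitor gene Nfkbia at 134 and 179 CPM on CaP Zn and 56.5 CPM in replicate 1. Interferon-stimulated genes had -0.51 with 4 of 27 higher and 15 lower. Both lists of immune signalling thus had more members lower than higher. Cholesterol synthesis had -0.57 with 1 of 24 higher and 18 lower, and heat shock proteins -0.53 with 2 of 17 higher and 10 lower. Translation factors had -0.55 with 0 of 22 higher and 14 lower, small actin cytoskeleton proteins -0.62 with 2 of 18 higher and 12 lower, and replication-dependent histones -0.75 with 0 of 16 higher and 5 lower. Lists of proliferation were mixed: DNA replication had 0.29 with 7 of 24 higher and 8 lower, and mitosis 0.33 with 10 of 24 higher and 6 lower, their medians running from 0.15 to 0.39 and from 0.11 to 0.49 with either CaP Zn library left out. Lysosomal genes had -0.12 with 8 of 32 higher and 11 lower.

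Markers of other cell types were given for all libraries because several were higher in replicate 1. The summed B cell markers, led by Ighm, stood at 121.6 CPM in replicate 1 and 32.0 to 40.3 CPM in the other 5, with 3 of 7 markers at 0 in every library. Dendritic cell markers, led by Itgax, stood at 22.3 CPM against 3.17 to 9.42 CPM, with 2 of 9 at 0, and endothelial markers, led by Vwf, at 13.7 CPM against 1.75 to 2.45 CPM, with 4 of 7 at 0. Macrophage markers, led by Lyz2, stood at 10446 CPM in replicate 1 against 11300.2 to 17057 CPM. Osteoclast markers stood at 118.7 CPM against 135.6 to 208 CPM, and T cell markers at 3.44 CPM against 4.05 to 6.01 CPM. Monocyte and neutrophil markers stood at 5.15 CPM against 1.40 to 3.04 CPM, with 4 of 9 at 0. Fibroblast, mast cell, erythroid and resident macrophage markers each stood under 1.2 CPM in every library. Osteoblast markers, nearly all of it Spp1, stood at 2353 CPM against 9162 to 14922 CPM. The part of other cell types in the differences of replicate 1 was not tested.

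Among noncoding classes and pseudogenes, processed pseudogenes, spliced copies of messages placed back in the genome, were lower in replicate 1. They had a median of -0.46 over 715 tested genes with 51 passing as higher and 234 as lower, and took 1.32% of its counts against 2.03% and 2.14% on CaP Zn. Among those at 20 CPM or more the median was -0.88. Relative to length the median of all 715 was 0.27, that is, above protein-coding genes of the same length bin. Pseudogenes of ribosomal proteins had a median of -0.95 over 80 genes, near that of the genes they copy, from which reads may be shared. Relative to length their median was -0.16, against -0.52 for the genes they copy. Unprocessed pseudogenes had a median of 0.43, 0.25 without one of the CaP Zn libraries, and 2.34 among those at 20 CPM or more. Genes could reach 20 CPM through replicate 1 itself, as Gm28439 did, so the value of 2.34 is partly set by the level. LincRNAs had a median of 0.19 over 298 genes, but -0.0067 at 20 CPM or more. Antisense genes had a median of -0.04 over 324 genes, and nuclear-retained long noncoding RNAs of 0.74 over 9, or 0.22 at 20 CPM or more. Malat1, the most abundant of these, had 2988 and 3494 CPM on CaP Zn, 3772 CPM in replicate 1 and 3210.2 CPM in replicate 2. Neat1, the scaffold of paraspeckles, had 235 and 235 CPM on CaP Zn, 138 CPM in replicate 1 and 311 CPM in replicate 2, so its 2 CaP Zn0.8Mn libraries lay on opposite sides of CaP Zn.

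Genes that handle manganese gave no common direction on the manganese alloy. The exporter gene Slc30a10 had 0 counts in all 6 libraries. The importer Slc39a8 stood at 1.18 and 0.896 CPM on CaP Zn, 1.65 CPM in replicate 1 and 0.711 CPM in replicate 2, Slc39a14 at 47.1 and 41.8 CPM on CaP Zn, 74.5 CPM in replicate 1 and 47.6 CPM in replicate 2, and Slc11a2 at 137 and 141 CPM on CaP Zn, 47.3 CPM in replicate 1 and 134 CPM in replicate 2. For Slc39a14 and Slc11a2 replicate 2 differed from CaP Zn by 0.10 and -0.051 on the log2 scale, and replicate 1 by 0.75 and -1.55. Sod2 had 150.3 and 167 CPM on CaP Zn, 74.5 CPM in replicate 1 and 184 CPM in replicate 2, again on opposite sides. Over the list of 13 tested genes the medians were 0.23 in replicate 1 and 0.022 in replicate 2, and 4 passed as higher and 4 as lower in replicate 1. Without CaP Zn replicate 1 the replicate 1 median was -0.011.

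Metallothionein messages differed between the 2 libraries too. Mt1 had 276 and 319 CPM on CaP Zn, 155 CPM in replicate 1, 404 CPM in replicate 2 and 369 and 478 CPM with lithium. Mt2 was near the detection limit, at 0.430 and 0.704 CPM on CaP Zn, 0.727 CPM in replicate 1 and 1.42 CPM in replicate 2. Without replicate 1 the edgeR difference of Mt1 was 0.44 ± 0.14 (log2, SE; adjusted p = 0.967) and that of Mt2 1.34 ± 0.57 (adjusted p = 0.967). The zinc handling list had medians of 0.18 and 0.0033 in the 2 libraries, and 0.11 in replicate 1 when either CaP Zn library was left out. The actin gene Actb, often a reference, stood at 973 and 912 CPM on CaP Zn, 1546 CPM in replicate 1 and 1099 CPM in replicate 2, above CaP Zn in both.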

How the data were processed

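Polyadenylated RNA of 6 libraries, 2 per alloy, was sequenced; groups come from the treatment label and replicate numbers from the titles. The authors deposited read counts for 54532 genes and FPKM values; no aligner or counter is named in the labels. Per the submitters' processing notes the build was mm9, but 53499 of 54409 genes matched to GENCODE M21 (98.3%) carry GRCm38 positions in the deposited tables, and coordinates are printed as GRCm38. The tables hold 0 columns of other samples.

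From the counts, edgeR 4.0.16 (R 4.3.3) fitted the 13156 genes kept by its filter, with TMM scaling, robust quasi-likelihood, group means over all 6 libraries (residual degrees of freedom: 3). CPM are TMM-scaled, and log2 CPM carry a prior count of 2. The differences of single libraries, the agreeing genes and the class medians are descriptions without a test. The script was tested on simulated data. Alternatives used DESeq2 1.42.0, limma 3.58.1 and the deposited FPKM on a log2 scale. Copies are genes sharing at least 100 distinct 50-base windows in GENCODE transcripts, counted over all genes at each level, and printed sequences are GENCODE M21 coding sequences.

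Named genes include the 10 farthest above and below CaP Zn per library among those at 20 CPM or more on CaP Zn or in that library. The others are the agreeing genes, some of the 3 most abundant members of the lists, fixed metal and reference genes, and called genes. Some lists have no member named. Where fewer than 3 were named, the choice among them followed no planned rule, so they need not be typical of their list. Csf3, Rab15, Adgre5, Cd28 and Gm44321 were named after their values were seen. Members and lists were chosen with earlier results of these data known. Classes by a hydrophobic protein stretch were planned but not run.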

Additional observations from a re-analysis of the deposited data

How the results depend on the processing

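With both CaP Zn0.8Mn libraries, edgeR called 0 single genes under every alternative scaling, count minimum, 4-library fit, exclusion of mitochondrial genes, voom and log2 FPKM setting tried, and 1, Gapdh, without a filter or with DESeq2. Leaving out 1 library gave 0 to 7808 calls, and DESeq2 without CaP Zn0.8Mn replicate 1, chosen after seeing the data, gave 5. The replicate block called 0 genes, with 132 at an unadjusted p under 0.05. The correlations of same-numbered deviations were 0.254, -0.153 and -0.0939 for the 3 pairs of groups, so the numbers were not taken to pair the libraries.

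Past 2-fold, replicate 1 had 775 genes at 100 CPM or more. Replicate 2 had 15 at 5 CPM or more and 3 at 100 CPM or more. The 26 agreeing genes became 8 at a mean of 20 CPM, 186 at 1 CPM, 167 at a lower fold minimum, 3 at 2-fold, and 43 to 65 with either CaP Zn library left out. The cause was not tested for any of these beyond the genes and libraries each setting leaves.

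Direction was checked for the agreeing genes and for Slc39a14, Slc11a2, Sod2, Mt1, Malat1, Neat1, Actb and Gapdh. The agreeing genes were picked for a common side, so leaving out a CaP Zn0.8Mn library could hardly reverse them. Sod2, Mt1, Malat1 and Neat1 were those that reversed. Without CaP Zn0.8Mn replicate 1 the differences were 0.22 for Sod2, 0.44 for Mt1, -0.014 for Malat1 and 0.40 for Neat1 in edgeR, and 0.22, 0.44, -0.012 and 0.40 in DESeq2. Over all libraries left out, Sod2 ran from -1.10 to 0.22, Mt1 from -0.95 to 0.44, Malat1 from -0.014 to 0.22 and Neat1 from -0.78 to 0.40. Mt1 was 0.020 without CaP Zn replicate 2, and Malat1 -0.0043 without CaP Zn replicate 1.

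Class medians of replicate 1 that moved at 20 CPM or more were TEC genes 1.61, lincRNA -0.0067, processed pseudogene -0.88, processed transcript -1.38, protein coding 0.012, transcribed processed pseudogene -0.26, unprocessed pseudogene 2.34, all mitochondrial genes 3.37, Zfp zinc finger genes 0.49, Sm and Lsm proteins -1.30, C2H2 zinc finger factors 0.46, manganese handling 0.062, zinc handling 0.23, inflammatory cytokines and chemokines -2.59, inducible M1 enzymes and receptors -1.31, NF-kB subunits and feedback inhibitors -0.81, p53 targets -1.26, bone and vessel factors -0.22, nuclear-retained long noncoding RNAs 0.22, small nucleolar RNA host genes -2.51, long chromatin genes 0.78. Genes entered at 20 CPM on CaP Zn or in replicate 1, so those high in replicate 1 could enter through it. By library totals the median was -0.00080 for all tested genes and 0.022 for protein coding genes. With either CaP Zn library left out, the medians that moved ran as follows: C2H2 zinc finger factors 0.64 to 0.83, DNA replication 0.15 to 0.39, mitochondrial tRNA 1.86 to 2.10, Sm and Lsm proteins -1.27 to -1.21, TEC genes 0.044 to 0.26, Zfp zinc finger genes 0.58 to 0.83, small actin cytoskeleton proteins -0.76 to -0.48, all mitochondrial genes 2.99 to 3.25, antioxidant and glutathione -0.77 to -0.67, bone and vessel factors -0.79 to -0.28, cholesterol synthesis -0.65 to -0.51, complement and properdin 0.95 to 1.57, cytosolic ribosomal proteins -1.27 to -1.03, glycolysis -0.39 to -0.19, heat shock proteins and cochaperones -0.59 to -0.40, immediate early genes -1.61 to -1.08, inducible M1 enzymes and receptors -0.56 to -0.47, manganese handling -0.011 to 0.26, miscellaneous RNA -1.248 to -0.49, mitosis 0.11 to 0.49, nuclear-retained long noncoding RNAs 0.55 to 0.86, osteoclast genes -0.37 to 0.13, polymorphic pseudogene -0.61 to -0.52, processed pseudogene -0.55 to -0.43, protein coding 0.02 to 0.039, replication-dependent histones -1.005 to -0.75, respiratory chain and ATP synthase -1.39 to -1.21, sense intronic -0.11 to 0.18, snoRNA -0.38 to -0.33, transcribed processed pseudogene -0.47 to -0.41, transcribed unitary pseudogene 0.80 to 1.23, transcribed unprocessed pseudogene -0.040 to 0.099, translation factors -0.61 to -0.41, unprocessed pseudogene 0.25 to 0.55, zinc handling 0.11 to 0.11. Of the values that answer a comparison 315 were within the limits, 88 moved and 3 reversed. The 2 libraries per group and, for the weakest genes, their few counts limit the precision.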
